A study of Mus musculus with 2 samples.

Results

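Defensins are small cationic peptides, held in shape by disulfide bonds, that kill microbes mainly by disrupting their membranes. In mice, alpha defensins (Defa genes, also called cryptdins) are products of Paneth cells at the base of the small intestinal crypts, while beta defensins (Defb genes) are made by many epithelia, among them skin, airway, tongue and, for many members, the epididymis. Both subfamilies grew by tandem duplication, so most of their genes stand side by side in clusters. Here the defensin genes were described by their place in a map of chromosome folding.

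All autosomal genes whose symbol is Defa or Defb plus a number in the GENCODE M21 annotation of GRCm38 were taken. These were 64 genes, all protein-coding, of 51229 autosomal genes of any type, and they comprised 22 alpha and 42 beta defensins. The map came from in situ Hi-C, which ligates DNA ends lying close together in the nucleus, with the restriction enzyme DpnII. It was made on mature olfactory sensory neurons that express the odorant receptor gene Olfr17 (P2), sorted by fluorescence from the olfactory epithelium of untreated adult P2-GFP mice of the 129P2/OlaHsd strain, of mixed sex. The 2 biological replicates, of 23000 and 20000 cells, form 1 group, and the list of boundaries was made from both combined. No comparison of groups is therefore possible, the spread between replicates cannot be measured, and the depth is unknown. The label of the cells was not checked against markers, because expression was not analysed here.

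Contacts are depleted across a domain boundary, so that the DNA on its sides forms separate domains. Each boundary in the authors' list is a bin of 5 kb with a class, Strong or Weak, and a score without a stated unit. The autosomes held 7169 boundaries, or 2.99 per sequenced Mb, of which 54.6% were Strong, and the median score was 0.564. The 7150 intervals between the midpoints of neighbouring boundaries had a median width of 260 kb, with quartiles of 180 and 390 kb. Each defensin was placed by its transcription start site (TSS), the annotated 5′ end, between the boundary on its left and the boundary on its right.

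The 64 defensins fell into only 5 intervals, and 46 of them shared a single interval on chromosome 8. That interval ran from the Strong boundary at chr8:18970001-18975000 (score 1.09) to the Strong boundary at chr8:21945001-21950000 (score 0.815), a width of 2975 kb. It held all 22 alpha defensins and 24 beta defensins. It was the widest of the 376 intervals on chromosome 8, where the next was 1665 kb wide, and ranked 7 of 7150 over all autosomes. By sequenced length it ranked 10, because 350 kb of it are unsequenced in the reference. Thus 71.9% of defensins lay in an interval of at least 2 Mb, against 2.11% of all autosomal protein-coding genes with a boundary on both sides. Since the members of a tandem cluster share their interval, this is 1 position in the genome and not 46 separate ones.

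The boundary-free interval and the row of defensin genes had nearly the same ends. The leftmost member, Defb40, lay 2.44 kb to the right of the left boundary's midpoint, and the gene reaches into the boundary's bin. The rightmost, Defb13, ended 1.35 kb beyond the midpoint of the right boundary, which fell in an intron of Defb13. The 46 genes spanned 2974 kb in all. The first boundary to the left of the interval stood at -405 kb from the left one (Strong, score 1.44), and the first to the right stood at 3195 kb from the left one (Strong, score 0.814). The nearest other protein-coding genes outside were Xkr5, of the XK-related family, 24.0 kb to the left of Defb40, and Fam90a1a, 9.86 kb to the right of Defb13.

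**Figure D1:**
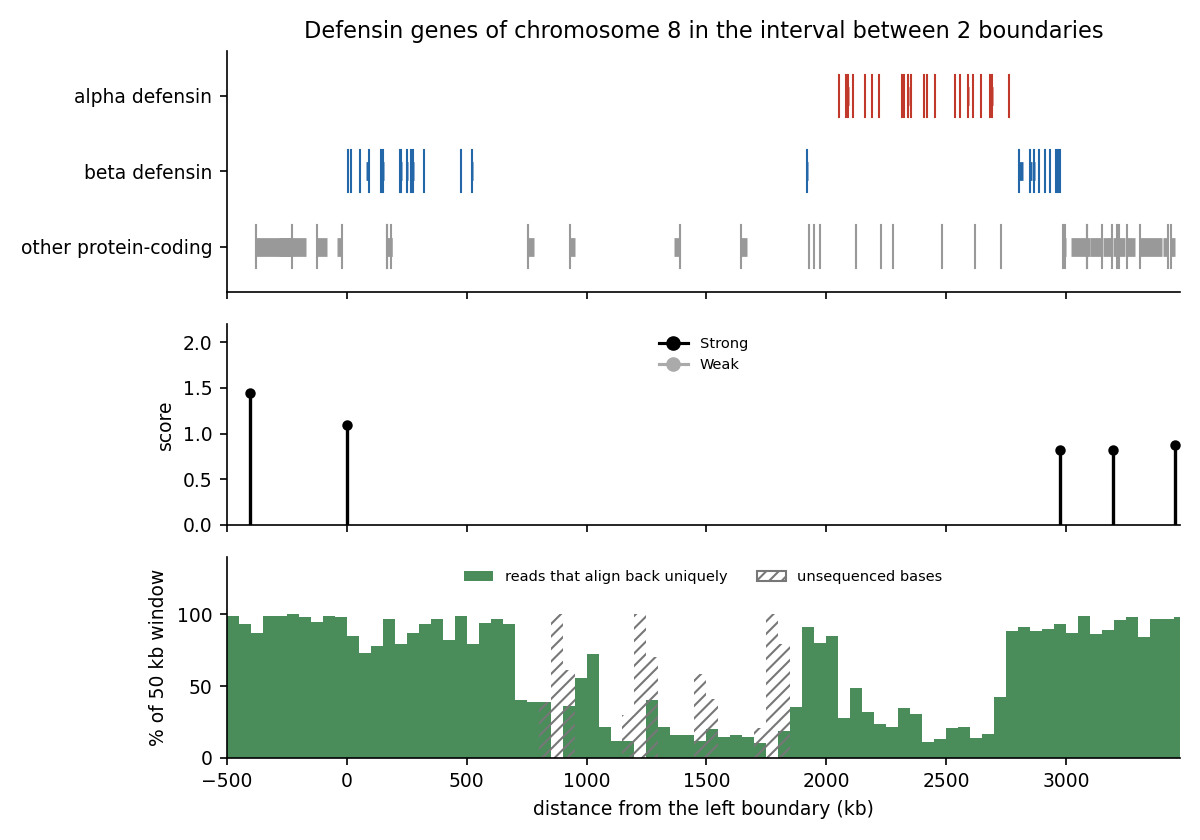
Genes, boundaries and read uniqueness along the chromosome 8 defensin interval, against the distance from its left boundary in kb. The top panel marks the TSSs of alpha defensins, beta defensins and other protein-coding genes, and the middle panel gives boundary scores by class. The bottom panel gives the percent of reference reads that align uniquely and of unsequenced bases in windows of 50 kb. No boundary lies between 0 and 2975 kb.

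From left to right the interval held a beta defensin cluster, a long stretch with few genes, the alpha defensin cluster and a second beta defensin cluster. As clusters counted runs of 5 or more genes of 1 subfamily whose neighbouring TSSs were under 500 kb apart. The left beta cluster, from Defb40 to Defb7, held 14 genes in 523 kb. The alpha cluster, from Defa21 to Defa24, held 22 genes in 709.9 kb. The right beta cluster, from Defb1 to Defb13, held 9 genes in 172 kb. Defb33 stood alone between Defb7 and the alpha cluster and belonged to no cluster.

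The interval also held the TSSs of 16 protein-coding genes that are not named as defensins. Spag11a and Spag11b, which encode epididymal proteins with defensin-like domains, and Gm45826 lay within the left beta cluster. The 1395 kb between Defb7 and Defb33 held 4 such genes, 4930467E23Rik, Gm31371, Gm15319 and Gm21119. Within the span of the alpha cluster there were 6, namely Gm14851, Gm15293, Gm15292, Gm7849, Gm7861 and AY761184. Gm15056, Gm6040 and AY761185 made up the rest.

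Much of this interval is hard to map, and this was measured from the reference itself. Reads of 100 bases were taken every 500 bases and aligned to the reference. Those with a mapping quality of at least 30 were counted as unique, without a check that they returned to their own place. They made up 51.7% in the interval, against 91.2% over all autosomes. The alpha cluster had 26.4%, and the stretch between Defb7 and Defb33 had 39.6%. The left and right beta clusters had 86.4% and 89.6%. The part of read uniqueness in the missing boundaries was not tested. Of the 18 intervals of at least 2 Mb, 7 were well mapped (at least 80% unique), and the median over the 18 was 50.4%, against 94.8% over all intervals.

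The ends of the interval had more unique reads than its middle. The first 700 kb, up to the first window of 50 kb with fewer than 50% unique reads, had 88.1% unique reads and held the whole left beta cluster. Of all intervals, 6.84% were at least 700 kb wide. The right end, 225 kb long, had 89.4% unique reads, and 60.7% of intervals were at least that wide. Counting only windows with at least 80% unique reads, 17 of 59 windows qualified, and the longest run of them was 250 kb, a length that 53.6% of intervals reach. These stretches were chosen after their values were seen.

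Alpha defensins lay far from boundaries without exception. None of the 22 TSSs was within 25 kb of a boundary midpoint, which holds for 24.3% of all autosomal protein-coding genes. With 22 genes, a count of 0 has an exact 95% binomial interval that reaches 15.4%, but these genes share 1 interval and are not independent. The distance to the nearest boundary was 213 kb at the lowest, 595 kb at the median and 922 kb at the highest, against a median of 58.4 kb over all protein-coding genes. For every alpha defensin the nearest boundary was the one in Defb13. The closest to it was Defa24 at 213 kb, and the farthest were Defa21 at 922 kb, Defa23 at 892 kb and Defa35 at 882 kb.

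For beta defensins the share near a boundary lay below or above that of all genes, depending on the boundaries used. The TSS was within 25 kb of a boundary midpoint for 9 of 42 (21.4%, exact 95% binomial interval 10.3 to 36.8%), beside the 24.3% of protein-coding genes. The binomial interval treats the 42 genes as independent, but they lie in only 5 intervals between boundaries and share them. It therefore does not cover the whole error. With Strong boundaries alone the count was again 9 of 42, against 16.2% of protein-coding genes. With the higher-scoring boundaries it was again 9 of 42, against 14.9%, so the order turned. With all boundaries it was 13 of 42 within 50 kb (31.0%), against 43.7%, so the order was the same as at 25 kb. The median distance was 79.0 kb, with a range from 0.738 to 1055 kb. On chromosome 8 the share was 5 of 24 (20.8%), and elsewhere it was 4 of 18 (22.2%). The median distances were 133 kb on chromosome 8 and 62.8 kb elsewhere.

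The 9 beta defensins near a boundary all had a Strong one as their nearest. At the right end of the chromosome 8 interval they were Defb13 at 0.738 kb, Defb35 at 9.15 kb and Defb15 at 14.8 kb. At its left end they were Defb40 at 5.76 kb and Defb37 at 18.6 kb. On chromosome 14 they were Defb48 at 2.99 kb, Defb47 at 10.6 kb and Defb43 at 24.3 kb, and on chromosome 2 it was Defb23 at 17.1 kb. The next member beyond the limit was Defb20 on chromosome 2, at 29.6 kb.

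The beta defensins farthest from a boundary were all in the chromosome 8 interval. They were Defb33 at 1055 kb, Defb7 at 523 kb and Defb8 at 475 kb. Well-studied members lay at intermediate distances. Defb1, which is made constitutively in kidney and other epithelia, was 171 kb from the boundary in Defb13. Defb4, an inducible airway peptide and the counterpart of human DEFB4A, and Defb14, the counterpart of human DEFB103, were neighbours at 226 and 222 kb from the left boundary. Defb29 on chromosome 2 was 92.6 kb from its nearest boundary.

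**Figure D2:**
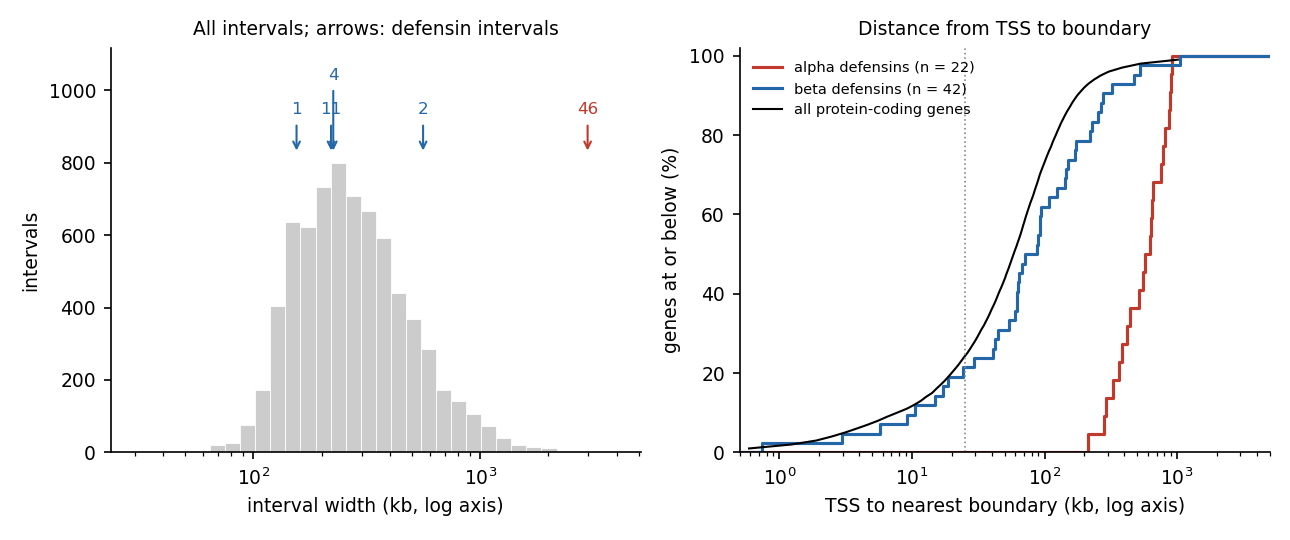
Left, histogram of the widths of all 7150 intervals in kb on a log axis, with arrows at the 5 intervals that hold defensins and the number of defensins in each; the arrow at 46, in the colour of alpha defensins, marks the interval that also holds 24 beta defensins. Right, cumulative percent of genes by distance from TSS to the nearest boundary in kb on a log axis, with a dotted line at 25 kb; the alpha defensins begin at 213 kb, while the beta defensins run from 0.738 to 1055 kb.

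Of the 5 clusters, the chromosome 2 cluster alone had a boundary within 50 kb of both ends. Its 11 beta defensins, from Defb23 to Defb25, spanned 164.0 kb within an interval of 220 kb. The left boundary, at chr2:152445001-152450000 (Strong, score 0.602), lay 11.6 kb outside the start of Defb23. The right boundary, at chr2:152665001-152670000 (Strong, score 0.639), lay 44.4 kb outside Defb25, and its bin overlaps H13, the gene of signal peptide peptidase. The same interval held Gm17416 and Rem1, which encodes a Ras-like GTPase and starts 3.90 kb beyond Defb25. Its reads were 98.0% unique. On the left the nearest other gene was 6820408C15Rik, at 14.7 kb.

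The chromosome 14 cluster was split by a boundary. The 5 genes from Defb48 to Defb42 spanned 80.6 kb, with a Strong boundary at chr14:62985001-62990000 between Defb48 and Defb47. Its score of 1.74 was the highest of the boundaries that flank defensins and higher than those of 93.3% of autosomal boundaries. Defb48 shared the 155 kb interval to the left with Wdfy2, a gene for a phosphoinositide-binding protein. That interval ended at a Strong boundary of score 0.689, at chr14:62830001-62835000. Defb47, Defb43, Defb30 and Defb42 shared the 225 kb interval to the right with Ctsb (cathepsin B), Fdft1 (squalene synthase) and Neil2 (a DNA glycosylase). It ended at a Strong boundary of score 0.944 at chr14:63210001-63215000, in an intron of the transcription factor gene Gata4. Reads in these intervals were 99.0% and 97.3% unique.

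The pair on chromosome 1 had only Weak boundaries around it. Defb18 and Defb41 lay with Crisp4, which encodes a cysteine-rich secretory protein of the epididymis, in an interval of 560 kb. The boundary on the left, at chr1:18090001-18095000, had a score of 0.366, and the one on the right, at chr1:18650001-18655000, had a score of 0.220. Defb18 was 145 kb and Defb41 173 kb from the left boundary, which was the nearer one for both. With 2 genes, the pair did not count as a cluster.

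**Figure D3:**
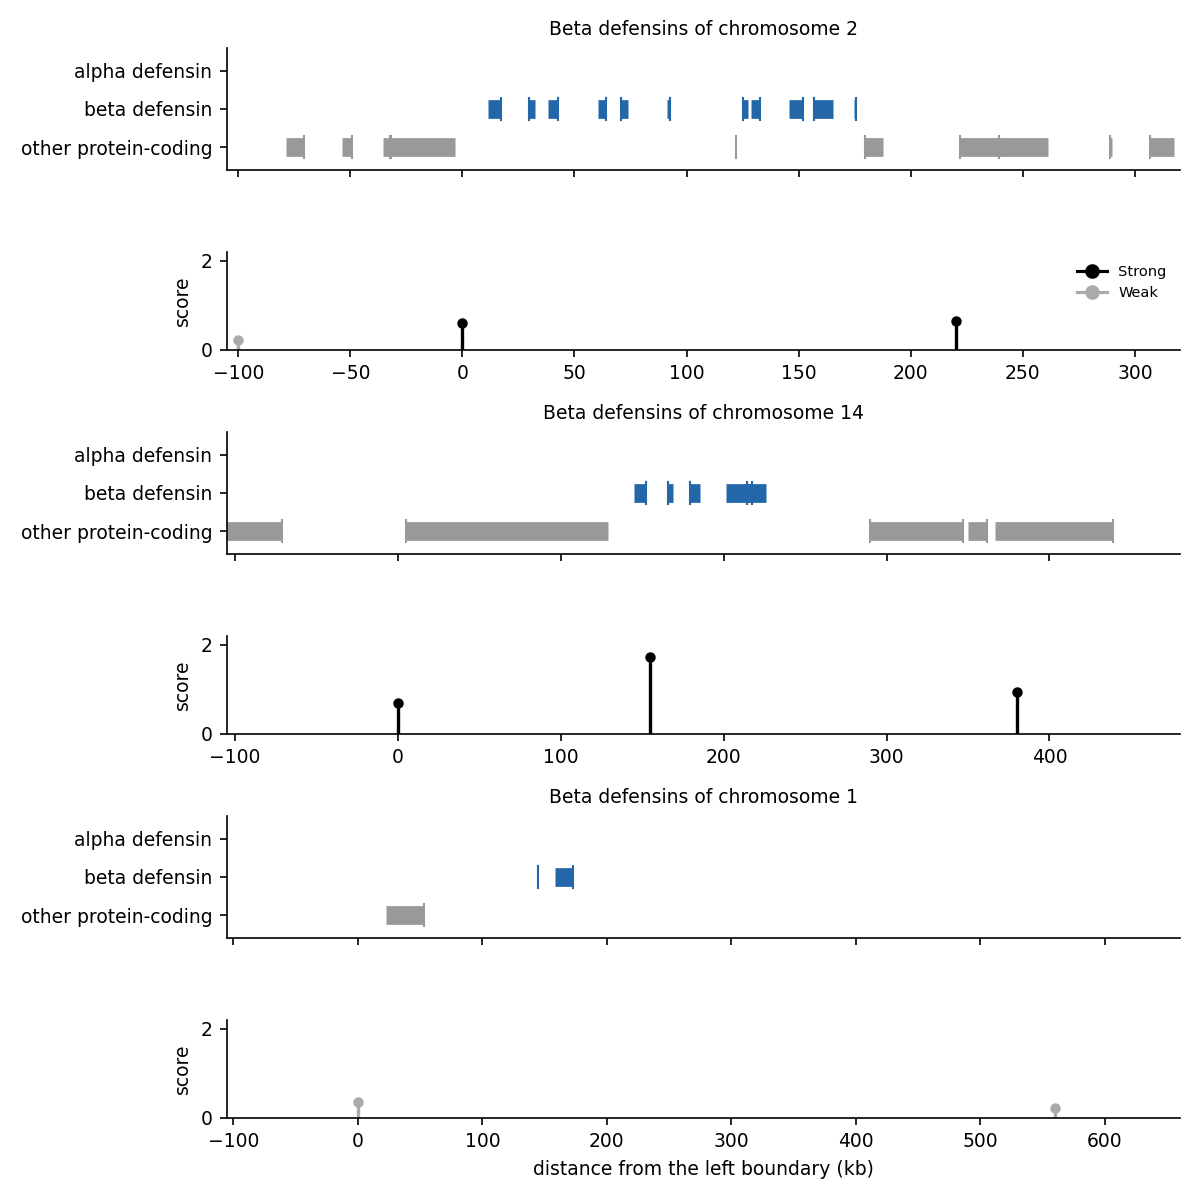
Beta defensins, other protein-coding genes and boundary scores on chromosomes 2, 14 and 1, against the distance in kb from the left boundary of each locus; black stems are Strong and grey stems Weak boundaries. The chromosome 2 genes lie between boundaries at 0 and 220 kb, the boundary of score 1.74 splits the chromosome 14 genes, and the chromosome 1 pair has Weak boundaries on both sides.

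The 5 clusters held 2 boundaries in all. The alpha cluster held none in 0.710 sequenced Mb, which allows a density of up to 4.23 per Mb (3 counts), and at the density of all autosomes 2.12 would be there. A lower density than that of the autosomes was therefore not detectable in this length. The 4 beta clusters held 2 in 0.940 Mb (2.13 per Mb), where 2.81 would be there at the autosomal density. Those 2 were the boundary between Defb48 and Defb47 and the one in Defb13, both Strong. Boundary-free stretches were cut at the ends of each cluster, so a cluster without a boundary inside counted with its own length. Their order thus largely restates cluster length, and the shares set spans of genes beside whole intervals between boundaries. The alpha and left beta clusters lie in the same wider interval. The longest boundary-free stretch inside a cluster was the full 709.9 kb of the alpha cluster, a width that 6.67% of all intervals reach. This order holds under the joining distance of 500 kb; at 1000 kb the longest stretch was that of a beta cluster, 1055 kb, which then reached from Defb33 across the alpha genes. In the beta clusters joined at 500 kb the longest stretches were the 523 kb from Defb40 to Defb7 (13.99% of intervals) and 171 kb of the cluster from Defb1 to Defb13 (77.9%). They were 164.0 kb on chromosome 2 (81.2%) and 70.6 kb on chromosome 14 (99.7%).

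Boundaries lay at 5 of 8 beta edges and at neither of the 2 alpha edges, which are few edges. Neither edge of the alpha cluster had a boundary within 50 kb (exact 95% binomial interval 0 to 84.2%). Defa21, on the left, was 2053 kb from the boundary outside it, and Defa24, on the right, was 212 kb from the one outside it. Of the 8 beta edges 5 (62.5%, exact 95% binomial interval 24.5 to 91.5%) had one, against 44.7% of all ends of autosomal protein-coding genes. The alpha and the beta binomial intervals both include 44.7%, so no difference is read from these counts. These binomial intervals also treat the edges as independent. However, both alpha edges and the beta edges at Defb7 and Defb1 share a single interval between boundaries. All 5 boundaries were Strong. In 3 cases the boundary lay outside the cluster, at Defb40, Defb23 and Defb25, and in 2 it lay just inside, 1.35 kb at Defb13 and 9.98 kb at Defb48. The beta edges without one were Defb7, Defb1 and Defb42, the nearest boundary of which lay 525, 171 and 70.6 kb away. The inner edges at Defb7 and Defb1 face the alpha cluster within the same interval.

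The 9 distinct boundaries that flank defensins had scores from 0.220 to 1.74 with a median of 0.689, beside 0.564 over all autosomal boundaries, and 7 of 9 (77.8%) were Strong, beside 54.6% of all autosomal boundaries and 59.2% of those that flank protein-coding genes. With only 9 boundaries, no difference is read from this share. The alpha defensins share 2 of them, with scores of 1.09 and 0.815, which are higher than 78.7% and 66.4% of autosomal boundaries.

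Other tandem gene families gave values for comparison. Of 62 Serpin genes, which encode protease inhibitors, none lay in an interval of at least 2 Mb. There were 327 vomeronasal receptor genes, and 25.5% of those with a boundary on both sides lay in such an interval, against 2.11% of protein-coding genes. The TSS was within 25 kb of a boundary midpoint for 14.1% of all defensins, 12.9% of Serpin genes and 7.95% of vomeronasal receptor genes. Over all protein-coding genes it was 24.3%. The medians of the distance were 172 kb for defensins, 85.6 kb for Serpin genes and 147 kb for vomeronasal receptor genes, against 58.4 kb for protein-coding genes. Members of a family share intervals, and 46 of the 64 defensins lie in a single one. The genes are therefore not separate units in these shares and medians.

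CTCF is a zinc finger protein found with cohesin at many domain borders, and its core consensus was searched on both strands. Such a match is a sequence and not a measured site. A match lay within 10 kb of 6 of the 9 boundaries that flank defensins, against 58.99% of all autosomal boundaries and 41.8% of all windows of 20 kb. The Strong boundary next to Defb40 had none, and neither had the Weak boundaries of chromosome 1. The chromosome 2 boundaries had 4 on the left and 5 on the right. Of the 14 matches, 9 lay in repeats marked in the reference, against 70.3% of all core matches. The match nearest to each boundary that has one is given here, since these boundaries delimit the intervals that hold the defensins, with the core in capitals and 10 bases on each side, 5′ to 3′ on the strand given, from GRCm38.
chr2:152448613-152448644, plus strand, left of Defb23: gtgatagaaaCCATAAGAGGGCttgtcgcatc
chr2:152669380-152669411, plus strand, right of Defb25: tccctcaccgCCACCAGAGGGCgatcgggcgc
chr8:21955506-21955537, minus strand, right of Defb13: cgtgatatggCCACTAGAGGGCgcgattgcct
chr14:62835926-62835957, minus strand, left of Wdfy2: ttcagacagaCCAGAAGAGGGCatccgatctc
chr14:62981995-62982026, minus strand, within Defb48: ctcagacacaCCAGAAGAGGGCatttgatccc
chr14:63214264-63214295, plus strand, in the bin at Gata4: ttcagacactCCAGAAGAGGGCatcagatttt

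The alpha cluster held 13 core matches, and all 13 were on the minus strand, opposite to 21 of its 22 genes. Only Defa29 is on the minus strand. The density of matches was 18.3 per sequenced Mb in the cluster, against 35.4 per Mb over all autosomes. A low density was not particular to the alpha genes. The left and right beta clusters of the same interval had 15.3 and 23.2 per Mb, while those on chromosomes 2 and 14 had 115.9 and 74.4. Of all autosomal core matches, 50.2% were on the plus strand. All 13 had the same core of 12 bases, and with 10 bases on each side there were only 4 distinct sequences, each present in 2 to 5 copies. Neighbouring matches were 31.6 to 170.0 kb apart, with a median of 39.1 kb. None of the 13 lay in repeats marked in the reference. Of these, 5 lay at -7.28 to -7.21 kb from the TSS of an alpha defensin (Defa23, Defa31, Defa3, Defa17 and Defa24). They are given because they recur across the cluster, and this pattern was noticed after the values were seen, with the core in capitals, 5′ to 3′ on the minus strand.
present 5 times, as at chr8:21080629-21080660 near Defa25: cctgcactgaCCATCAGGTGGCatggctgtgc
present 4 times, as at chr8:21121596-21121627 near Defa30: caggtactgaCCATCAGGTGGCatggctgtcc
present 2 times, as at chr8:21280125-21280156 near Defa3: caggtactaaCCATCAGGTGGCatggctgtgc
present 2 times, as at chr8:21047826-21047857 near Defa23: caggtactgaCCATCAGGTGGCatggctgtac

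The alpha genes themselves were also more alike than the beta genes. Over whole annotated transcripts, the median identity among the 231 pairs of alpha defensins was 79.8%, against 47.6% among 861 pairs of beta defensins. The 924 pairs of an alpha with a beta defensin had a median of 48.5%. The value among beta defensins was thus no higher than that between the subfamilies. This identity also falls where lengths differ, and beta transcripts ran from 174 bases (Defb46) to 1909 bases (Defb42). To its closest relative an alpha defensin had a median identity of 97.3%, and 20 of 22 had a relative with at least 90% identity. The highest was 99.8%, for Defa2 with Defa33 and for Defa20 with Defa32. No beta defensin reached 90%, their median was 52.9%, and the highest was Defb10 with Defb11 at 85.2%. Read uniqueness over the gene and 2 kb on each side had a median of 27.3% for alpha defensins and 100% for beta defensins, against 97.8% for all protein-coding genes. It was 0% for Defa2 and Defa33 and 100% for Defa24. Repeats marked in the reference made up 52.5% of the alpha cluster, against 32.6% of the autosomes. They made up 46.5% and 37.6% of the left and right beta clusters on chromosome 8. On chromosomes 2 and 14 the beta clusters had 29.8% and 27.9%.

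**Figure D4:**
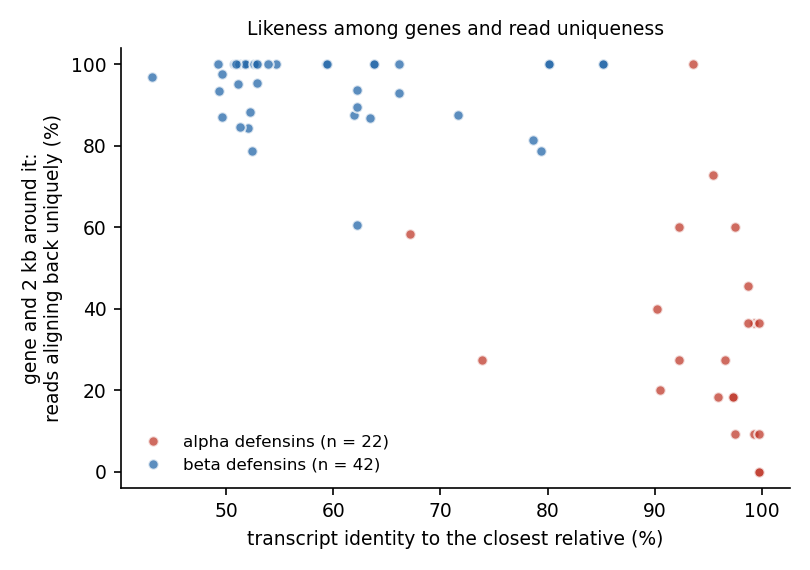
Each point is a defensin gene, with its transcript identity to its closest relative (percent) against its read uniqueness. Read uniqueness is the percent of reference reads from the gene and 2 kb on each side that align uniquely. Of the alpha defensins, 20 of 22 are at 90% identity or more, and all beta defensins lie below 90%; Defa24 is the alpha defensin at 100% unique reads.

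The letters TATAAA were in most of the alpha promoters that could be matched and in few of the beta promoters. RefSeq promoters of GRCm38.p6, 250 bases before to 50 bases after the gene start, were matched by symbol for 12 of 22 alpha and 29 of 42 beta defensins, which had 12 and 30 promoters. Within these 300 bases, TATAAA was on the sense strand in 11 of 12 alpha promoters (91.7%), in 3 of 30 beta promoters (10%) and in 8.32% of 31396 autosomal promoters. On either strand the shares were 91.7%, 16.7% and 13.6%. The motif began 20 to 40 bases before the start, where a TATA box usually stands, in 7 of 12 alpha promoters (58.3%), in 2 of 30 beta promoters (6.67%) and in 2.02% of all autosomal promoters. The CTCF core, whose letters cannot overlap those of TATAAA, was in none of the alpha promoters, in 2 of 30 beta promoters and in 1.25% of all. Median identity over the 250 bases before the start was 78% among the 66 alpha pairs (47.2 to 100%). Among the 406 beta pairs it was 46% (39.2 to 86.4%). Some alpha promoters, such as those of Defa21 and Defa22, are thus copies of the same sequence. The 12 alpha promoters are therefore not independent, and their TATAAA counts include such copies.

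Promoters are given for an alpha pair that stands far apart in the cluster and for the beta defensins nearest to a boundary. Each is the 250 bases before the RefSeq start, 5′ to 3′ on the gene's strand, with TATAAA in capitals.
Defa21, chr8:21025295-21025544, plus strand: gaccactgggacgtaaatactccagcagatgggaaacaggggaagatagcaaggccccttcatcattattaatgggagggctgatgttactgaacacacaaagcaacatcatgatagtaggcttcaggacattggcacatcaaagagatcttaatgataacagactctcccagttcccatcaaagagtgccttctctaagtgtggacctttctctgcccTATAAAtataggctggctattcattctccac
Defa20, chr8:21509008-21509257, plus strand: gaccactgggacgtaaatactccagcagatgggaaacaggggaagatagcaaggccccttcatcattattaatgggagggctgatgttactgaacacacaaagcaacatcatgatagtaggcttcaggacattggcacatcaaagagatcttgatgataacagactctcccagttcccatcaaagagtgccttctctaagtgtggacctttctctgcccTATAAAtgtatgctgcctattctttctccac
Defb13, chr8:21946505-21946754, plus strand: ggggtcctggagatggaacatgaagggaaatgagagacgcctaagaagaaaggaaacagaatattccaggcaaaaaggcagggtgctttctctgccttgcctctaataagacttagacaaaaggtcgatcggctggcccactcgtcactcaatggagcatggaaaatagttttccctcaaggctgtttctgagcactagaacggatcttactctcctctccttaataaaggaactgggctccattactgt
Defb48, chr14:62984511-62984760, minus strand: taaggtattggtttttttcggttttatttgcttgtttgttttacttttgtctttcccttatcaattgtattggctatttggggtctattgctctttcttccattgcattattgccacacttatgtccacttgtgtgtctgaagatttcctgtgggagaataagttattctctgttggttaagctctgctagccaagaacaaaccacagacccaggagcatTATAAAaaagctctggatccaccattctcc

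The Defa21 and Defa20 promoters were 98% identical over these 250 bases. The Defb13 promoter lies within the bin of the boundary in Defb13 and holds no TATAAA, while that of Defb48, 2.99 kb from its boundary, has TATAAA with its first base 30 bases before the start.

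Genes that act with defensins in antimicrobial defence were looked at as a list. It held proteases, receptors, transcription factors and other antimicrobial proteins, and 28 of 29 symbols were matched. Of these 4 (14.3%) started within 25 kb of a boundary midpoint, beside the 24.3% of all protein-coding genes, and the median distance was 66.8 kb. Nearest were Slpi, a secreted protease inhibitor with antimicrobial activity, at 3.41 kb, Sox9, a transcription factor needed for Paneth cells, at 4.72 kb, and Lcn2, which binds bacterial siderophores, at 15.8 kb. Mmp7, the protease that activates the alpha defensin precursors in mouse Paneth cells, was 89.6 kb from a boundary. Ccr6, the chemokine receptor to which several beta defensins bind, was 231 kb from a boundary.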

How the data were processed

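In situ Hi-C was performed on 2 replicates of sorted olfactory sensory neurons. Per the labels' design text, contacts of both were combined on GRCm38 (also the build in the submitters' processing notes) and boundaries were called on the matrix. The deposited list gives a bin, a class and a score per boundary, and the score's scale is not stated by the authors. The caller, its window and the contact total were not given in the sources used here. Neither contact matrix nor insulation track was analysed here.

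Boundaries were placed by bin midpoint and genes by GENCODE M21, with Python 3.11.15 and numpy 2.4.6. Read uniqueness came from minimap2 2.31 on the reference, not from the authors' reads. Identity was 1 minus edit distance over the longer sequence (edlib 1.3.9), with the longest transcript of each gene. Position searches were tested on simulated data. No test was run, because there is 1 map.

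The members and lists were chosen with earlier results of these data known. Named genes were cluster ends, members within 25 kb of a boundary, the 3 farthest of each subfamily, members outside clusters, 5 well-studied members, neighbours and the 3 nearest pathway genes. Mmp7, Ccr6, Defa2, Defa33, Defa20, Defa32, Defb10, Defb11 and the genes beside the CTCF matches were added after their values were seen. Alternatives were other boundary subsets, distances, cluster rules and gene positions.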

Additional observations from a re-analysis of the deposited data

How the results depend on the processing

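No paired analysis was possible because both replicates form 1 group and the list was made from them combined, and no replicate could be left out. Over 95 alternative values, 89 moved by less than 1.5 times or not at all, but 2 orders between groups turned. The 89 are no measure of stability, because some alternatives could change nothing. All members are protein-coding, and joining under 250 kb or taking at least 3 genes gave the same clusters. Both boundaries of the chromosome 8 interval are Strong and among the higher-scoring ones, so its width was fixed under those subsets. The chromosome 8 interval stayed 2975 kb wide with Strong boundaries alone, where it ranked 80 of 3898, and with the higher-scoring boundaries, where it ranked 88 of 3565. Among the values that moved, the longest boundary-free stretch in a beta cluster was 1055 kb when TSSs under 1000 kb apart were joined, against 523 kb. Defb33 then joined the right cluster across the alpha genes. That stretch passed the 709.9 kb of the alpha cluster, which was the longest at 500 kb. Beta TSSs near a boundary numbered 4 within 10 kb (9.52%, beside 11.7% of protein-coding genes), against 9 within 25 kb (21.4%, beside 24.3%). With Strong boundaries alone and with the higher-scoring ones the 9 stood beside 16.2% and 14.9%, so that the beta share was above that of all genes and no longer below it. Pathway genes near a boundary numbered 2 of 28 with Strong boundaries alone (beside 16.2% of protein-coding genes), 2 with the higher-scoring boundaries (14.9%), 2 within 10 kb (11.7%) and 9 within 50 kb (43.7%), against 4 (24.3%). Boundaries inside or within 50 kb of the alpha cluster gave no score, because there were none. With alpha and beta genes joined, 5 of 8 edges had a boundary within 50 kb. Reference sequence comes from C57BL/6J and the cells from 129P2/OlaHsd, so strain differences in the number or order of defensin copies are not seen here. Contacts behind single bins were unknown, so the absence of a boundary could not be told apart from low coverage.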
